A study of Mus musculus with 22 samples.

Results

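The comparison describes how CD8 T cells that carry the Tcaim knock-in change in 24 hours of stimulation. It compares 6 of the 22 libraries of the series. These are the naive and the 24 h cells of 3 mice of the line labelled Tcaim KI Cd4Cre, genotype label hocre. Each mouse gave 1 naive library and 1 library at 24 h, and the experiment numbers 1, 3 and 5 in the labels name the mice. Mice 1 and 3 were male and mouse 5 was female, and the labels used here give no age. The reference for the response was the same line with the genotype label wtcre, called wt here, with a naive and a 24 h library from 3 further mice of experiments 1, 3 and 5. In this line Cre is driven by Cd4 regulatory sequence, which is active in developing T cells of both the CD4 and the CD8 lineage. Cells came from spleen and lymph nodes after magnetic removal of non-target cells. Naive cells are labelled 0 h, and the 24 h cells had been cultured on plate-bound anti-CD3 at 2 µg/ml with soluble anti-CD28 at 1 µg/ml, which mimic antigen and costimulation. No library of cells kept in culture without these antibodies is among the 22, so culture and stimulation cannot be told apart. The remaining libraries are knock-in and wt cells at 48 h, and cells of female mice labelled knockout, naive and at 48 h. All 22 libraries entered the fit described below and its estimate of the spread.

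A naive CD8 T cell is small, divides rarely and recirculates through lymphoid organs. Signals from the T cell receptor and CD28 lead it to grow, to take up nutrients, to copy its genome and to begin the program of a killer cell, and the first division usually falls at about the end of the first day. Tcaim encodes a mitochondrial protein, and its full name, T cell activation inhibitor, mitochondrial, refers to effects of the gene on T cells. Mitochondria meet the endoplasmic reticulum at contact sites that pass lipids and calcium, and cholesterol synthesis begins at the endoplasmic reticulum.

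The 6 libraries held 65364183 to 93489115 counts, and genes of the mitochondrial genome took 2.13 to 2.83% of them. Values below are CPM (counts scaled to a common library size, with TMM factors) unless another unit is named, and triplets follow the order of mice 1, 3 and 5. A gene is said to have risen or fallen where edgeR's quasi-likelihood test across all 22 libraries, with the mouse as a block, gave a Benjamini-Hochberg adjusted p under 0.05. A fold change is the log2 fold change at 24 h against naive ± its standard error. The standard error was derived from that fit, as the size of the log2 fold change divided by the square root of the F statistic. In that fit all 22 libraries share the estimate of the spread. Of the 46603 genes counted, 21183 were tested. Beside this fit 10 alternatives were run, among them 3 other scalings and the omission of each mouse, and where 1 of them takes a call away the range of the adjusted p is given.

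Tcaim was higher in every KI library than in any wt library. Tcaim (chromosome 9, 122805539 to 122836334, GRCm38) stood at 138, 145 and 141 CPM in naive cells and 226, 237 and 178 CPM after 24 h in KI cells. In wt cells it stood at 15.2, 14.6 and 14.7 CPM in naive cells and 9.86, 8.38 and 10.1 CPM after 24 h. All 6 KI libraries lay above all 6 wt libraries, so the genotypes did not overlap at either time. Within KI cells Tcaim rose with stimulation (log2 fold change 0.60 ± 0.20 and adjusted p = 0.0259), most in mice 1 and 3. That call is a weak one, with an adjusted p of 0.00486 to 0.161 over the alternatives and values above 0.05 without mouse 1, without mouse 3 and with upper-quartile scaling. In wt cells Tcaim fell over the same day (log2 fold change -0.65).

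The cells carried the markers of CD8 T cells throughout. Cd8a stood at 1448, 1419 and 1435 CPM in naive cells and 999.8, 1019 and 994 CPM after 24 h, and Cd8b1 at 1177, 1225 and 1290.3 CPM in naive cells and 778, 790.3 and 863 CPM after 24 h. The 9 CD8 T cell markers summed to 6958 to 7309 CPM naive and to 5092 to 5710 CPM at 24 h, and 5 of the 9 fell. The drop of Cd8b1 (log2 fold change -0.60 ± 0.13 and adjusted p = 0.00231) passed under each alternative, whereas that of Cd8a (log2 fold change -0.51 ± 0.14 and adjusted p = 0.0104) reached 0.000127 to 0.0778 over the alternatives and was lost when any 1 mouse was left out. Cd4, the marker of helper T cells, stood at 21.1, 25.5 and 33.9 CPM in naive cells and 16.3, 16.4 and 29.8 CPM after 24 h. The 6 CD4 T cell markers summed to 46.6 to 64.6 CPM naive and 41.1 to 62.7 CPM at 24 h, and none of the 6 passed the test.

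Markers of other cells summed to less than those of CD8 T cells, and most of them fell. NK cell markers summed to 51.1 to 87.1 CPM naive and to 3.36 to 5.53 CPM at 24 h, and 6 of 6 fell. Macrophage and monocyte markers summed to 104 to 206 CPM naive and 28.0 to 61.5 CPM at 24 h, and 8 of 10 fell. Dendritic cell markers went from 196 to 340.4 CPM to 63.3 to 225 CPM with 7 of 8 lower, sums that overlapped through mouse 5. B and plasma cell markers went from 982 to 1284 CPM to 687 to 1073 CPM with 8 of 9 lower, and the ranges of these sums overlapped. Gamma-delta T cell markers fell in 5 of 5, neutrophil markers in 5 of 7, erythroid and platelet markers in 5 of 7 and stromal and endothelial markers in 2 of 7. Mouse 5 had the highest sum of B cell, macrophage and dendritic cell markers at both times. No marker of any list was at 0 in all 3 libraries of a group. In bulk libraries fewer cells of a type and less RNA per cell cannot be told apart.

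**Figure D1:**
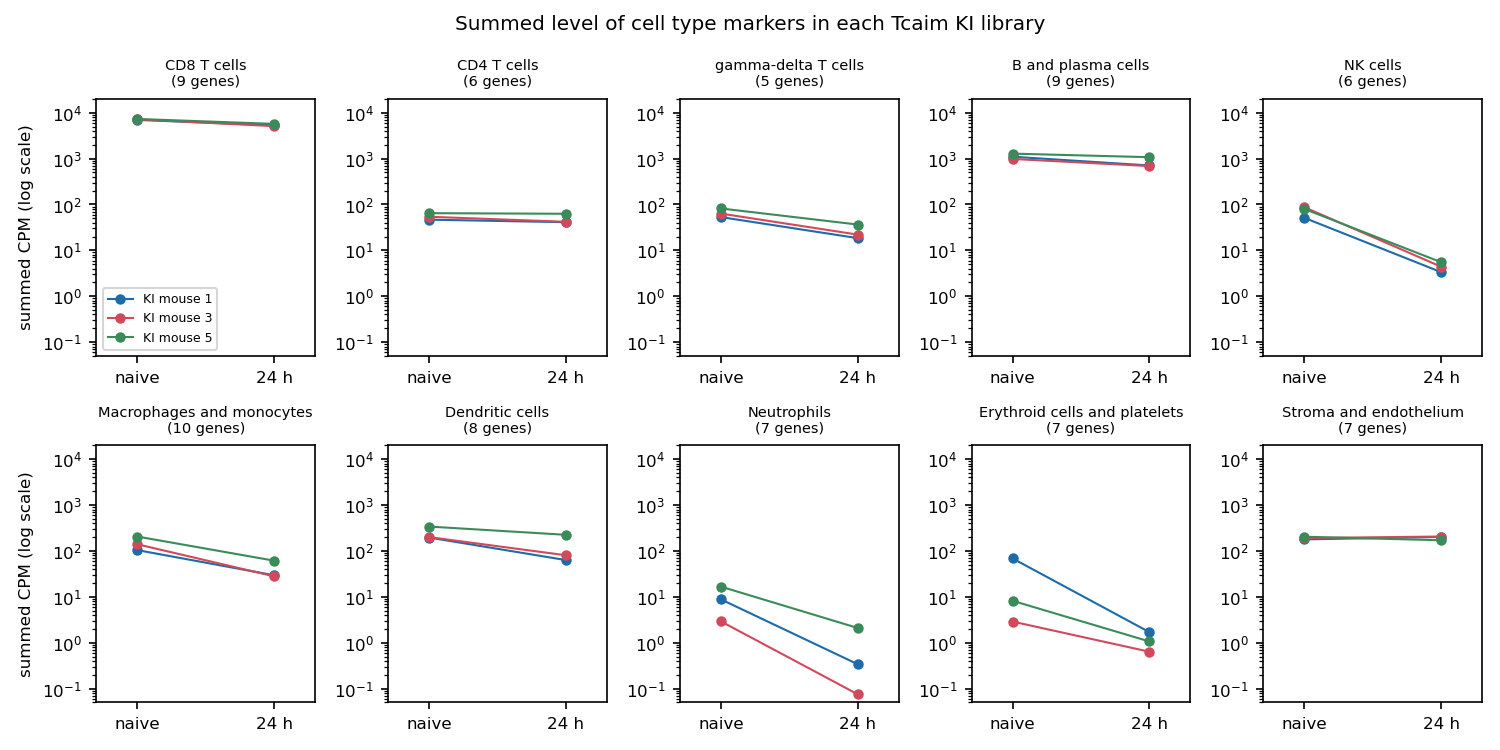
Summed CPM on a log axis of the markers of each of 10 cell types, naive and at 24 h, with 1 line per KI mouse. The CD8 T cell sum is 6958 to 7309 CPM naive and 5092 to 5710 CPM at 24 h. The NK cell sum drops from 51.1 to 87.1 CPM to 3.36 to 5.53 CPM in all 3 mice.

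A day of stimulation altered the transcript levels of a large part of the genome. Of the 21183 genes tested 8781 were called (41.5%), 5064 of them higher (23.9%) and 3717 lower (17.5%). Of the called genes 4620 differed by at least 2-fold, with 2571 higher (12.1% of those tested) and 2049 lower (9.67%), and 512 rose and 583 fell by at least 8-fold. The 3 mice changed in the same direction for 8724 of the 8781 genes, and for 8530 of them the naive and 24 h ranges did not overlap, while the ranges of 12735 of all genes tested did not overlap (60.1%). Higher genes made up 57.7% of the calls. With upper-quartile scaling, which puts the median log2 fold change of all genes at -0.16, 4024 genes were higher and 5114 lower, so that the higher share was 44.0%. Leaving out mouse 1 left 5524 calls and leaving out mouse 3 left 5547.

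The genes that rose most span signalling, metabolism and DNA replication. Larger fitted folds belong to rarer transcripts, and the genes named here had a mean of at least 10 CPM in the higher group. Among them the largest rise was that of Gucy2e, a receptor guanylate cyclase (7.14). Npas4, a transcription factor best known from neurons as an early response to calcium, stood at 0.222, 0.188 and 0.275 CPM in naive cells and 33.4, 18 and 33.9 CPM after 24 h (log2 fold change 6.92 ± 0.31 and adjusted p = 2.89e-09). Bcat1, the cytosolic transaminase of branched-chain amino acids, stood at 1.19, 0.954 and 1.44 CPM in naive cells and 69.3, 74.6 and 68.7 CPM after 24 h (log2 fold change 5.91 ± 0.23 and adjusted p = 1.03e-09). Both genes separated the groups completely, and neither reached 2 CPM in a naive library. Lag3, an inhibitory receptor of activated T cells, rose from among the low transcripts as well, with 1.63, 2.21 and 3.2 CPM in naive cells and 105, 137 and 89.9 CPM after 24 h. Mcm10, which is needed to start replication forks, stood at 0.919, 1.42 and 1.57 CPM in naive cells and 73.8, 102 and 59.4 CPM after 24 h. The other genes among the 12 with the largest rise were Nrn1 (6.24), Slc9b2 (6.22), Ncs1 (5.98), BC030867 (5.95), Wnt10b (5.86), Chst2 (5.74) and Pclaf (5.55), each with its log2 fold change. Ncs1 encodes a neuronal calcium sensor, Chst2 a sulfotransferase and Pclaf a partner of the replication clamp.

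The 12 largest falls were of another make-up. Fos, a subunit of the AP-1 transcription factor, stood at 312, 370.2 and 352 CPM in naive cells and 4.89, 3.47 and 5.54 CPM after 24 h (log2 fold change -6.23 ± 0.23 and adjusted p = 9.56e-10), so that it left the abundant transcripts within the day. Ace, the angiotensin-converting enzyme, fell most (-7.64), with 2.95, 9.58 and 19.9 CPM in naive cells and 0, 0.0216 and 0.146 CPM after 24 h. Next came Fn1 (-7.20), which encodes the matrix protein fibronectin, Vcam1 (-6.40), an adhesion molecule, and Slc40a1 (-6.16), the cellular iron exporter. Gzma, a granzyme counted here among the NK cell markers, stood at 24.8, 42.3 and 40.2 CPM in naive cells and 0.683, 2.13 and 2.33 CPM after 24 h. Ace, Fn1, Vcam1, Slc40a1 and Gzma had at most 2.33 CPM in each 24 h library. The summed markers of NK cells and macrophages were lower at 24 h too, and the NK cell sum includes Gzma itself. The part of other cells in these falls was not tested. The remaining members were the interferon-stimulated genes Mx2 (-5.39) and Rsad2 (-5.07), the Schlafen antisense transcript Slfn5os (-4.44), Trim30c (-4.61), Klf4 (-4.77), a factor of quiescence, and Ggt1 (-4.52), which breaks down extracellular glutathione.

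**Figure D2:**
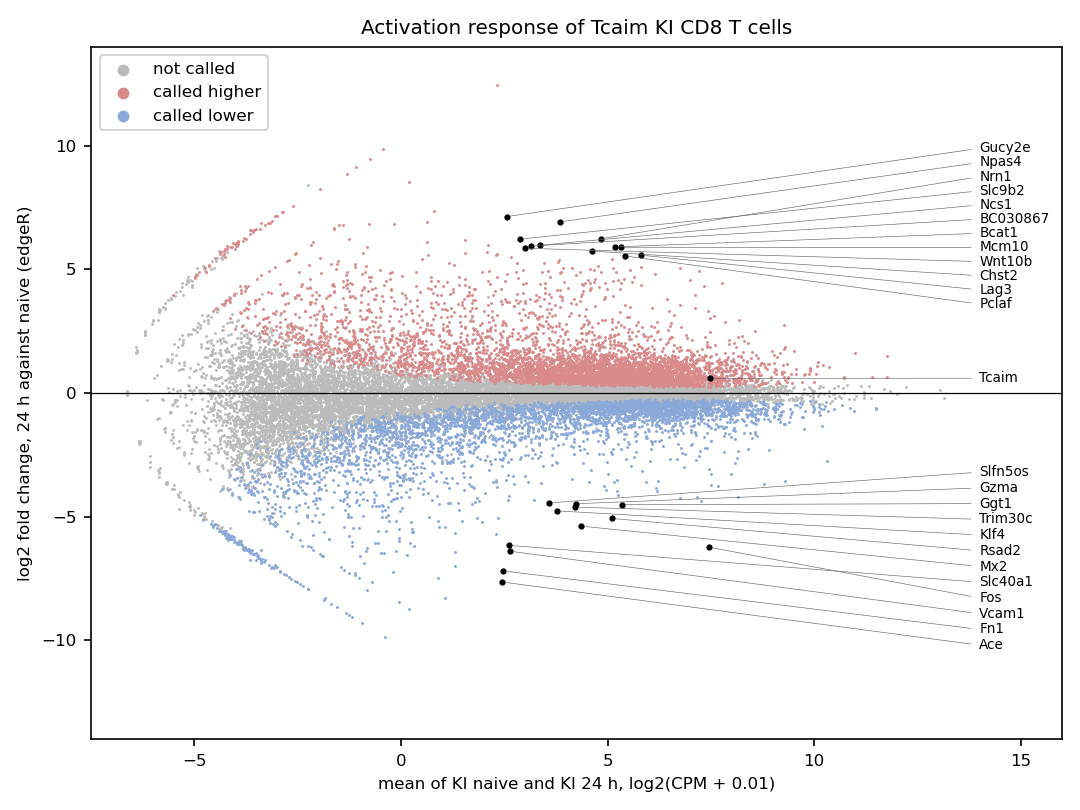
Log2 fold change at 24 h against naive for each tested gene, against the mean level on a log2 scale. Light red and light blue points are called higher and lower, grey points are not called, and black points mark Tcaim and the 12 largest rises and falls above 10 CPM. Fos falls by 6.23 from a high level, whereas Gucy2e and Npas4 rise by 7.14 and 6.92 from low levels.

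The factors that hold a T cell in the naive state fell for the most part. Of 22 naive state and quiescence factors 14 fell, 2 rose and 6 did not pass, with a median of -0.94 against 0.01 over all genes tested. Klf2, which drives the expression of homing receptors, stood at 545, 611 and 522 CPM in naive cells and 143, 109 and 239.5 CPM after 24 h (log2 fold change -1.83 ± 0.30 and adjusted p = 0.000257). It fell least in mouse 5, and the groups did not overlap. Foxo1, a transcription factor of quiescence, stood at 370.3, 411 and 371 CPM in naive cells and 184, 182 and 171 CPM after 24 h (log2 fold change -1.10 ± 0.13 and adjusted p = 1.01e-05). The antiproliferative genes Btg1 and Btg2 fell by 1.44 and 1.25, and Tsc22d3, a glucocorticoid response gene, fell by 2.64. Txnip, an inhibitor of glucose uptake, stood at 781, 964 and 895 CPM in naive cells and 324, 331 and 448 CPM after 24 h (log2 fold change -1.26 ± 0.19 and adjusted p = 0.000102). The largest called fall of the list was that of Igfbp4, a binding protein of insulin-like growth factors, with 481, 468 and 421 CPM in naive cells and 50.2, 49.97 and 41.4 CPM after 24 h. Il7r, the survival receptor of naive cells, stood at 551, 553 and 578 CPM in naive cells and 175, 119.7 and 299.8 CPM after 24 h (log2 fold change -1.59 ± 0.43 and adjusted p = 0.00829), with an adjusted p of 0.000535 to 0.104 over the alternatives that exceeds 0.05 without mouse 1 or mouse 3. Tcf7, the factor of naive and memory cells, did not pass with 1538, 1541 and 1468 CPM in naive cells and 1222, 1123 and 1142 CPM after 24 h (log2 fold change -0.38 ± 0.18 and adjusted p = 0.105), though 5 alternatives call it lower (adjusted p 0.0026 to 0.318). Bach2, a repressor of effector genes, rose (0.70).

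Homing receptors moved in both directions, with more falls than rises. Of 20 homing and adhesion receptors 9 fell and 3 rose, where 17.5% of all genes tested fell and 23.9% rose. The median was -0.39. Cxcr4, a receptor for the stromal chemokine Cxcl12, stood at 98.6, 287 and 237 CPM in naive cells and 20.4, 20.1 and 32.7 CPM after 24 h (log2 fold change -3.01 ± 0.38 and adjusted p = 2.57e-05), with mouse 1 lowest among the naive libraries. S1pr1, the receptor that lets cells leave lymph nodes, stood at 506, 648 and 566 CPM in naive cells and 167, 136 and 249 CPM after 24 h (log2 fold change -1.67 ± 0.43 and adjusted p = 0.00598), and its adjusted p exceeded 0.05 without mouse 3 (range 0.000232 to 0.0804). Cd44, a marker of activated and memory cells, rose with 12.9, 18.2 and 21.1 CPM in naive cells and 37.5, 44.7 and 40.1 CPM after 24 h (log2 fold change 1.26 ± 0.27 and adjusted p = 0.00164), and Ccr4 rose from about 1 CPM (2.56). Cd69, commonly used as a mark of early activation, was lower at 24 h with 305, 403 and 307 CPM in naive cells and 128, 129 and 133 CPM after 24 h (log2 fold change -1.38 ± 0.16 and adjusted p = 1.18e-05).

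The receptor complex itself moved little. Among 20 genes of the T cell receptor complex and its proximal signalling 3 rose and 7 fell, against 23.9% and 17.5% of all genes. The median was -0.22, and 1 gene passed 2-fold. That gene was Cd5, a negative regulator whose level follows receptor signalling, with 186, 206 and 186 CPM in naive cells and 431, 324 and 505 CPM after 24 h (log2 fold change 1.10 ± 0.15 and adjusted p = 5.64e-05). The zeta chain gene Cd247 fell (-0.57). The CD3 chains Cd3e, Cd3g and Cd3d did not pass, with log2 fold changes of -0.12, -0.25 and 0.07 (adjusted p 0.59, 0.226 and 0.831). Cd3g alone of them was called lower by alternatives, with upper-quartile scaling and with the 6 KI libraries fitted alone (adjusted p 0.0108 to 0.524).

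Immediate-early genes were divided between those high in the naive libraries and those high at 24 h. AP-1, EGR and NR4A factors with their feedback phosphatases numbered 24. Of these 11 fell and 4 rose (median -0.69), against 17.5% and 23.9% of all genes tested. Jun stood at 404, 447 and 297 CPM in naive cells and 22, 36.4 and 27.7 CPM after 24 h (log2 fold change -3.76 ± 0.35 and adjusted p = 1.40e-06) and Junb at 801, 1003 and 657 CPM in naive cells and 55.1, 61.1 and 78.3 CPM after 24 h (log2 fold change -3.69 ± 0.22 and adjusted p = 3.79e-08). Fosb fell by 3.93 and Dusp1, a phosphatase that shuts off MAP kinases, fell by 4.26. The 4 genes that rose were Egr2 (1.72), Egr3 (1.90), the orphan nuclear receptor Nr4a3 (2.59) and the Fos relative Fosl1 (2.69). Nr4a3 stood at 11.9, 14.4 and 12.8 CPM in naive cells and 80.4, 87.5 and 66.6 CPM after 24 h (log2 fold change 2.59 ± 0.23 and adjusted p = 1.17e-06). Egr1 and Nr4a1, which report recent receptor signals, had overlapping groups, with 94.1, 109 and 86.7 CPM in naive cells and 96.9, 80.8 and 107 CPM after 24 h for Egr1 and 95, 135 and 75.8 CPM in naive cells and 145, 122 and 169.8 CPM after 24 h for Nr4a1 (adjusted p 0.928 and 0.19). Batf, an AP-1 factor of effector cells, did not pass with 18.9, 20.6 and 22.1 CPM in naive cells and 22.2, 24.4 and 27.1 CPM after 24 h (adjusted p = 0.143).

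Transcription factors of the effector program did not move as a block. Of 18 CD8 T cell fate factors 7 rose, 5 fell and 6 did not pass, where 23.9% of all genes rose and 17.5% fell. Irf4, which scales with receptor strength and drives clonal expansion, showed the largest rise of the list, with 29.3, 40.5 and 25.8 CPM in naive cells and 374, 278 and 296 CPM after 24 h (log2 fold change 3.32 ± 0.49 and adjusted p = 9.29e-05). Irf8 rose with 22, 27.2 and 32.9 CPM in naive cells and 101, 183 and 99.6 CPM after 24 h (log2 fold change 2.21 ± 0.48 and adjusted p = 0.00198), Id3 rose (1.40) and Stat5a, the transducer of interleukin-2, rose (0.75). Id2 stood at 91.9, 94.4 and 84.8 CPM in naive cells and 40.7, 41.4 and 45.4 CPM after 24 h (log2 fold change -1.09 ± 0.16 and adjusted p = 0.000113) and Prdm1, the gene of Blimp-1, fell as well (-1.74). Tbx21, the gene of T-bet, did not pass, with 6.67, 10.1 and 7.32 CPM in naive cells and 13.2, 28.3 and 9.1 CPM after 24 h (log2 fold change 1.00 ± 0.54 and adjusted p = 0.155). Mouse 3 gave its highest level and mouse 5 a level inside the naive range. Eomes also overlapped between the groups, with 47, 58.8 and 47.4 CPM in naive cells and 57.6, 96.5 and 43.6 CPM after 24 h (adjusted p = 0.361).

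Checkpoint and costimulatory receptors mostly rose. Of 20 such receptors 13 rose and 4 fell, 11 of them rising by at least 2-fold, with a median of 1.15. Over all genes tested 23.9% rose, 12.1% rose by at least 2-fold and 17.5% fell. Pdcd1, the gene of PD-1, stood at 1.07, 1.63 and 1.9 CPM in naive cells and 55.4, 41.4 and 62.7 CPM after 24 h (log2 fold change 5.15 ± 0.42 and adjusted p = 4.50e-07). Tnfrsf9, the costimulatory receptor 4-1BB, stood at 8.38, 10.8 and 11.8 CPM in naive cells and 245, 219 and 267 CPM after 24 h (log2 fold change 4.58 ± 0.17 and adjusted p = 9.56e-10). Cd28 itself rose with 112, 138 and 108 CPM in naive cells and 571, 557 and 418 CPM after 24 h (log2 fold change 2.1 ± 0.18 and adjusted p = 6.21e-07). Tigit (3.15), Tnfrsf4 (1.87), Ctla4 (1.65) and Icos (1.07) rose too. The 2 falls past 2-fold were of the inhibitory receptors Havcr2 (-2.70) and Cd244a (-2.38), both at no more than 1.49 CPM in each 24 h library. In each of these genes the 3 mice moved together.

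Of 23 cytokines, chemokines, granzymes and related effector genes 6 rose and 6 fell, where 23.9% of all genes rose and 17.5% fell. Xcl1, a chemokine that attracts cross-presenting dendritic cells, stood at 5.23, 7.0 and 5.44 CPM in naive cells and 203, 134 and 289 CPM after 24 h (log2 fold change 5.07 ± 0.44 and adjusted p = 7.88e-07). Gzmb, the granzyme of effector cells, stood at 9.68, 14.6 and 11.1 CPM in naive cells and 31.4, 117 and 31.7 CPM after 24 h (log2 fold change 2.14 ± 0.48 and adjusted p = 0.00251), with mouse 3 well above the other 2 mice at 24 h. Il2 stayed a rare transcript, at 0, 0.0289 and 0.0275 CPM in naive cells and 1.02, 0.854 and 1.37 CPM after 24 h. Prf1, the gene of perforin, fell (-0.94) and Nkg7, a component of cytotoxic granules, stood at 203, 212 and 204 CPM in naive cells and 59.6, 82.1 and 66.8 CPM after 24 h (log2 fold change -1.59 ± 0.22 and adjusted p = 6.57e-05). Ifng did not pass, with 3.57, 6.84 and 4.6 CPM in naive cells and 2.8, 2.14 and 1.79 CPM after 24 h (log2 fold change -1.09 ± 0.70 and adjusted p = 0.228), nor did Tnf, with 13.9, 9.5 and 12 CPM in naive cells and 15.4, 13.3 and 17.5 CPM after 24 h (adjusted p = 0.358). For Nkg7 and Prf1 the drop in NK cell markers ran in parallel, and its part was not tested. Gzma is itself 1 of those markers, so its fall is included in that drop.

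Among 24 cytokine receptors and SOCS feedback genes 7 rose and 10 fell, against 23.9% and 17.5% of all genes tested. Il2ra, the high-affinity chain of the interleukin-2 receptor, stood at 2.24, 3.64 and 3.83 CPM in naive cells and 102, 117 and 105 CPM after 24 h (log2 fold change 5.10 ± 0.35 and adjusted p = 1.09e-07). Il2rg, the chain shared by several receptors, had overlapping groups at 841, 868 and 879 CPM in naive cells and 852, 791 and 961 CPM after 24 h (adjusted p = 0.986). Both chains of the interleukin-12 receptor rose, Il12rb1 by 2.11 and Il12rb2 by 2.15. Il12rb2 stood at 3.43, 6.04 and 5.77 CPM in naive cells and 19.9, 43.6 and 11.6 CPM after 24 h, highest in mouse 3. Il6ra (-1.92), Il18r1 (-1.56) and Socs3 (-1.62) fell, and Cish, a target of Stat5, rose (1.21).

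**Figure D3:**
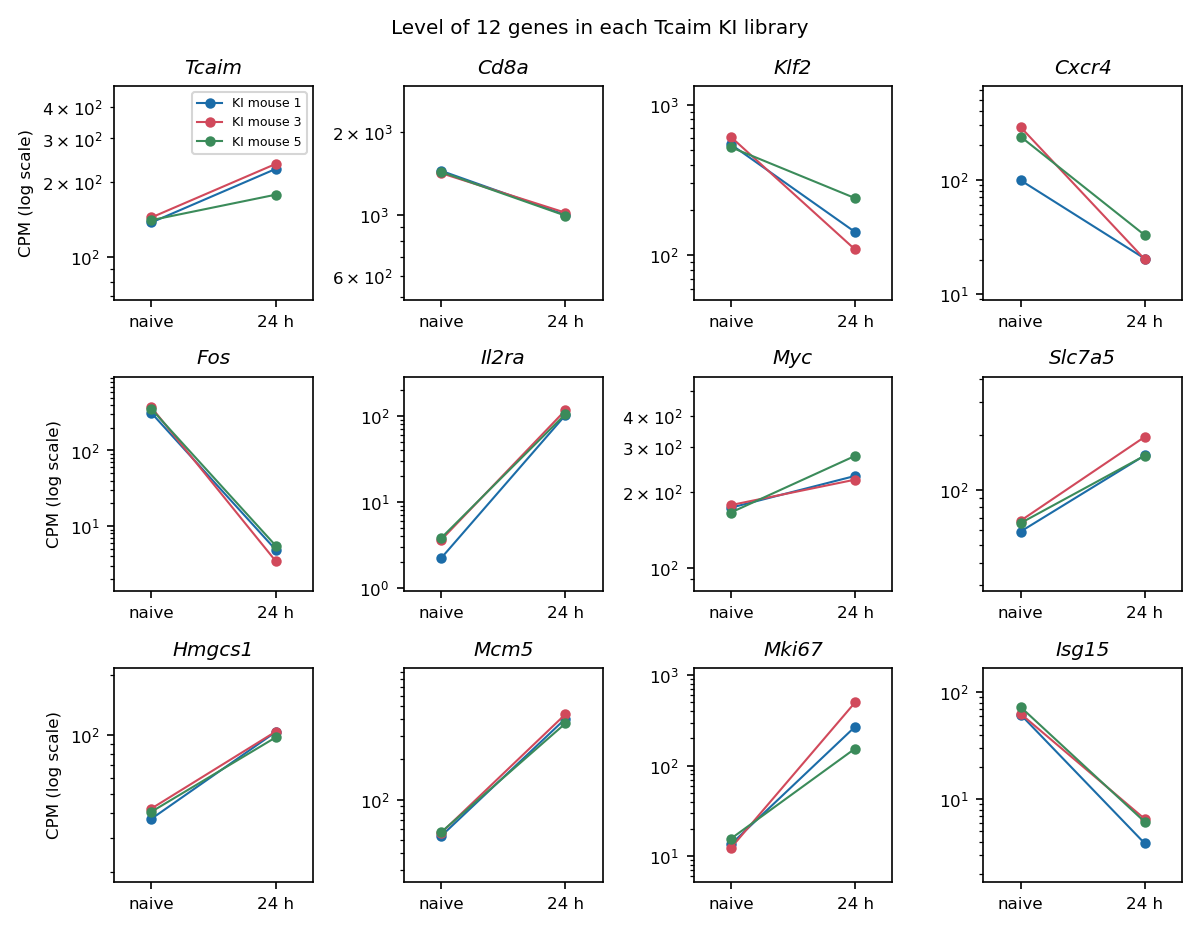
CPM on a log axis of 12 genes in each KI library, with 1 line from naive to 24 h per mouse. Klf2 and Fos drop in all 3 mice, Il2ra climbs from 2.24 to 3.83 CPM to 102 to 117 CPM, and Mki67 at 24 h ranges from 154 to 500.0 CPM over the mice.

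Growth genes rose broadly while Myc itself moved little. Myc, the factor that drives growth after activation, stood at 173, 177 and 166 CPM in naive cells and 231, 223 and 277 CPM after 24 h (log2 fold change 0.49 ± 0.17 and adjusted p = 0.0332). It was higher in all 3 mice, but 7 alternatives take the call away (adjusted p 0.00694 to 0.141). Of the 12 genes of the Myc, Max and Mxd network 3 rose and 5 fell, against 23.9% and 17.5% of all genes tested. Ribosome biogenesis genes rose in 19 of 28 cases and fell in none, with a median of 0.79 (over all genes 23.9% rose). Ncl, the nucleolar protein nucleolin, stood at 992, 1006 and 981 CPM in naive cells and 3075, 3289 and 2878 CPM after 24 h (log2 fold change 1.63 ± 0.16 and adjusted p = 2.84e-06), and Npm1 at 278, 273 and 262 CPM in naive cells and 773, 792 and 772 CPM after 24 h (log2 fold change 1.52 ± 0.13 and adjusted p = 5.84e-07). Translation factors and aminoacyl-tRNA synthetases rose in 24 of 27 cases (median 1.01). Eif5a, which helps ribosomes through proline stretches, stood at 339, 353 and 344 CPM in naive cells and 1109, 1065 and 1199 CPM after 24 h (log2 fold change 1.70 ± 0.26 and adjusted p = 0.000124). The inhibitor gene Eif4ebp1 rose by 2.47 and the synthetase genes Wars, Aars and Iars by 1.48, 1.31 and 1.22. The 3 members that did not pass were Eif4a1, Eef2 and Eif4g1.

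Amino acid transporters and branched-chain transaminases rose in 11 of 16 cases and fell in 2, against 23.9% and 17.5% of all genes tested. Slc7a5, the transporter of large neutral amino acids, stood at 59, 67.7 and 65.7 CPM in naive cells and 154, 194 and 153 CPM after 24 h (log2 fold change 1.38 ± 0.20 and adjusted p = 8.08e-05). Its partner chain Slc3a2 overlapped between the groups at 162, 170.1 and 120.1 CPM in naive cells and 145, 163 and 179 CPM after 24 h (adjusted p = 0.779). Slc1a5, which carries glutamine, rose with 230.1, 230.2 and 195 CPM in naive cells and 385, 361 and 422 CPM after 24 h (log2 fold change 0.83 ± 0.15 and adjusted p = 0.000499), and the rarer Slc6a9, a glycine transporter, rose by 3.42. Slc38a2, another glutamine carrier, fell with 334, 379 and 252 CPM in naive cells and 187, 203 and 186 CPM after 24 h (log2 fold change -0.73 ± 0.16 and adjusted p = 0.00191). Slc1a5 and Slc38a2, which both carry glutamine, thus moved in opposite directions.

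Glycolytic enzymes rose in 15 of 26 cases, with 2 falls, where 23.9% of all genes tested rose and 17.5% fell. Hk2, the hexokinase of activated cells, stood at 3.32, 4.81 and 4.41 CPM in naive cells and 43.8, 53.6 and 45 CPM after 24 h (log2 fold change 3.52 ± 0.29 and adjusted p = 5.52e-07). Tpi1 stood at 37.3, 37.4 and 41 CPM in naive cells and 281, 388 and 286 CPM after 24 h (log2 fold change 3.04 ± 0.21 and adjusted p = 9.91e-08), and the terminal enzymes Pkm and Ldha at 256, 279 and 267 CPM in naive cells and 918, 1063 and 964 CPM after 24 h and at 261, 281 and 291 CPM in naive cells and 875, 1038 and 961 CPM after 24 h. Pgam1 rose by 2.32 and the lactate exporter Slc16a3 by 3.06. The glucose transporters did not pass, with 40.5, 43.3 and 33.1 CPM in naive cells and 44.5, 54.7 and 47.2 CPM after 24 h for Slc2a1 and 74.6, 81.4 and 71.4 CPM in naive cells and 57.2, 63.8 and 59.3 CPM after 24 h for Slc2a3 (adjusted p 0.0877 and 0.456). Gapdh overlapped between the groups (adjusted p = 0.825), and its count is uncertain, as are those of Pgam1, Cycs and Fdps, because near-identical pseudogenes can share their reads. Pyruvate dehydrogenase kinase Pdk1 was lower (log2 fold change -0.58 ± 0.18 and adjusted p = 0.0168), a call lost when any 1 mouse is left out (adjusted p 0.000677 to 0.127).

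Enzymes that make the building blocks of DNA rose in most cases. Of 27 genes of the pentose phosphate route and nucleotide synthesis 23 rose and 1 fell, 17 of them rising by at least 2-fold (median 1.32). Rrm2, the regulated subunit of ribonucleotide reductase, stood at 4.33, 4.39 and 5.44 CPM in naive cells and 117, 199.7 and 95.9 CPM after 24 h (log2 fold change 4.82 ± 0.46 and adjusted p = 1.73e-06), and Rrm1 at 36.4, 38.6 and 43 CPM in naive cells and 309, 446 and 269 CPM after 24 h. Tyms, which makes thymidylate, rose by 3.82. The pyrimidine enzymes Cad, Umps and Ctps rose by 1.38, 2.23 and 1.38. Serine and folate one-carbon enzymes rose in 12 of 21 cases and fell in none, each rise being at least 2-fold. Psat1, of serine synthesis, stood at 28.6, 29 and 30.4 CPM in naive cells and 179.9, 228 and 158 CPM after 24 h (log2 fold change 2.69 ± 0.20 and adjusted p = 1.93e-07), Mthfd2, the mitochondrial folate enzyme of dividing cells, at 24.7, 25.2 and 28.1 CPM in naive cells and 102, 140.5 and 97.5 CPM after 24 h, and Shmt2 at 129, 134 and 127 CPM in naive cells and 324, 389 and 350.0 CPM after 24 h. Mouse 3 had the highest 24 h level of Rrm1, Rrm2, Tyms, Psat1 and Mthfd2.

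Cholesterol synthesis is the lipid route tied to the endoplasmic reticulum, and sterol-responsive genes rise when cells are short of sterol. Of 27 genes of cholesterol synthesis and uptake 18 rose, none fell and 9 did not pass, with a median of 0.70 (per mouse 0.70, 0.78 and 0.67). Cyp51, lanosterol demethylase, stood at 20.1, 19.1 and 20.7 CPM in naive cells and 97.3, 102 and 97.4 CPM after 24 h (log2 fold change 2.31 ± 0.20 and adjusted p = 8.41e-07). Hmgcs1, an early enzyme of the route, stood at 37.4, 42.1 and 40.6 CPM in naive cells and 103, 103 and 96.7 CPM after 24 h (log2 fold change 1.34 ± 0.18 and adjusted p = 3.70e-05). Sqle and Idi1 rose by 1.63 and 1.95, and Fdps by 1.42. For Cyp51 and Hmgcs1 the 3 libraries at 24 h lay close together and apart from the naive libraries. Other parts of the sterol system did not pass. Insig1, a sterol sensor of the endoplasmic reticulum, stood at 56.2, 52.5 and 28.6 CPM in naive cells and 40.3, 43.7 and 38 CPM after 24 h (adjusted p = 0.58). Srebf2, the transcription factor of the route, did not pass either with 208, 219 and 204 CPM in naive cells and 234, 233 and 225 CPM after 24 h (adjusted p = 0.48).

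The list of cholesterol efflux genes and LXR targets moved in both directions. Of its 12 genes 4 fell and 3 rose, where 17.5% of all genes tested fell and 23.9% rose. The pump Abca1 stood at 84.4, 90.4 and 85.4 CPM in naive cells and 18.4, 21.1 and 11.8 CPM after 24 h (log2 fold change -2.39 ± 0.18 and adjusted p = 2.91e-07), and Mylip, a ubiquitin ligase induced by LXR, at 82.7, 83.8 and 78.5 CPM in naive cells and 20.3, 19 and 25 CPM after 24 h (log2 fold change -1.93 ± 0.17 and adjusted p = 1.12e-06). Scarb1, a lipoprotein receptor, rose (1.40). Fatty acid synthesis and activation genes rose in 11 of 21 cases and fell in 3. Acaca, which makes malonyl-CoA, stood at 24, 22.5 and 21.6 CPM in naive cells and 62.4, 64.1 and 47.7 CPM after 24 h (log2 fold change 1.34 ± 0.13 and adjusted p = 2.71e-06), and the mitochondrial citrate exporter Slc25a1 at 16.3, 17.2 and 15.9 CPM in naive cells and 45.4, 50.4 and 51.2 CPM after 24 h (log2 fold change 1.57 ± 0.14 and adjusted p = 8.38e-07). Fasn was higher with 177, 188 and 157 CPM in naive cells and 341, 355 and 289 CPM after 24 h (log2 fold change 0.92 ± 0.28 and adjusted p = 0.0164), a call lost when any 1 mouse is left out (adjusted p 0.00013 to 0.0931). Scd1 fell with 35, 35.6 and 57.1 CPM in naive cells and 6.95, 10.7 and 17.5 CPM after 24 h (log2 fold change -1.93 ± 0.35 and adjusted p = 0.000566), which did not pass without the mouse block (range 4.03e-08 to 0.0661), while Fads1 rose (1.35). Srebf1 overlapped between the groups (adjusted p = 0.705).

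Nuclear genes of the respiratory chain rose with great regularity and by modest amounts. Of 42 genes 39 rose and none fell, with a median of 0.71, and 9 rose by at least 2-fold. Atp5b, the catalytic subunit of ATP synthase, stood at 653, 675 and 678 CPM in naive cells and 1243, 1289 and 1221 CPM after 24 h (log2 fold change 0.90 ± 0.12 and adjusted p = 3.33e-05), and Cox5a at 53.9, 56.3 and 62 CPM in naive cells and 133, 137 and 147 CPM after 24 h (log2 fold change 1.28 ± 0.15 and adjusted p = 1.07e-05). The 3 members that did not pass were Ndufa2, Ndufs3 and Cycs. Genes of the mitochondrial genome did not follow. Of 12 tested 1 rose, with a median of -0.03, a sign that turns without the mouse block (0.03) and without mouse 5 (0.21). The gene that rose was mt-Nd1, at 1987, 2026 and 2352 CPM in naive cells and 3449, 3531 and 2980.3 CPM after 24 h (log2 fold change 0.65 ± 0.18 and adjusted p = 0.00999), a call lost without mouse 1 or mouse 3 (adjusted p 0.00482 to 0.1). mt-Co1 stood at 8644, 9075 and 11276 CPM in naive cells and 8757, 9107 and 7256 CPM after 24 h (adjusted p = 0.565), lower in mouse 5 and level in the other 2 mice.

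Mitochondrial ribosomal proteins and mtDNA expression factors rose in 23 of 30 cases and fell in none (median 0.87). Mrps22 rose by 1.46 and Tfam, which packs mitochondrial DNA, stood at 64.6, 63.7 and 68.2 CPM in naive cells and 92.1, 99.1 and 99.9 CPM after 24 h (log2 fold change 0.57 ± 0.13 and adjusted p = 0.00295). Import, fusion and fission genes rose in 17 of 24 cases and fell in none. Hspd1, the mitochondrial chaperonin, stood at 97.6, 96.3 and 102 CPM in naive cells and 469, 489.7 and 463 CPM after 24 h (log2 fold change 2.27 ± 0.22 and adjusted p = 2.35e-06) and the translocase subunit Timm50 at 25.8, 26.5 and 26.4 CPM in naive cells and 65.3, 68.1 and 76.5 CPM after 24 h. The fission gene Dnm1l did not pass (-0.07, adjusted p = 0.629), and Mfn2, which tethers mitochondria to each other and to the endoplasmic reticulum, had 55.8, 58.4 and 56.1 CPM in naive cells and 72.5, 69.8 and 63.1 CPM after 24 h (adjusted p = 0.083).

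Genes of mitochondria-ER contact and calcium transfer moved in both directions. Of 31 genes 18 rose and 8 fell, with a median of 0.46 and 5 rises and 2 falls past 2-fold. Over all genes tested 23.9% rose and 17.5% fell, with 12.1% rising and 9.67% falling past 2-fold. Vdac1, the outer membrane channel, stood at 82, 85.5 and 86.7 CPM in naive cells and 211, 223 and 204 CPM after 24 h (log2 fold change 1.33 ± 0.14 and adjusted p = 6.23e-06). Mcu, the pore of the calcium uniporter, rose with 12.2, 13 and 13.1 CPM in naive cells and 23.1, 21.1 and 23.9 CPM after 24 h (log2 fold change 0.84 ± 0.15 and adjusted p = 0.000464). The calcium release channels of the endoplasmic reticulum fell, with log2 fold changes of -0.81 for Itpr1, -1.20 for Itpr2 and -0.90 for Itpr3. Itpr2 stood at 238, 225 and 207 CPM in naive cells and 103, 103 and 86.4 CPM after 24 h (log2 fold change -1.20 ± 0.20 and adjusted p = 0.000228). Atp2a3, the pump that refills the store, fell with 425, 457 and 416 CPM in naive cells and 202, 199.8 and 187 CPM after 24 h (log2 fold change -1.14 ± 0.15 and adjusted p = 3.45e-05). The tether genes Vapb and Rmdn3 did not pass (adjusted p 0.682 and 0.102), although the fit of the 6 KI libraries alone calls Rmdn3 higher (range 0.0118 to 0.312).

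DNA replication was the one program in which every member rose. All 42 replication licensing and firing genes tested rose, 37 of them by at least 2-fold, against 12.1% of all genes tested. Their median was 2.48, with 2.48, 2.58 and 2.28 in mice 1, 3 and 5. Mcm5, a subunit of the replicative helicase, stood at 53.4, 56.4 and 57.1 CPM in naive cells and 403, 435 and 372 CPM after 24 h (log2 fold change 2.86 ± 0.16 and adjusted p = 2.13e-08), and Mcm3 at 62.9, 66.9 and 71.1 CPM in naive cells and 507, 575 and 471 CPM after 24 h (log2 fold change 2.95 ± 0.16 and adjusted p = 2.03e-08). Cdc45, which activates the helicase, stood at 3.05, 2.62 and 3.45 CPM in naive cells and 66.5, 91.8 and 60.3 CPM after 24 h (log2 fold change 4.57 ± 0.24 and adjusted p = 1.42e-08), and Cdc6, which loads it, at 1.88, 2.4 and 1.77 CPM in naive cells and 66.7, 84 and 54 CPM after 24 h. The checkpoint kinase Chek1 stood at 1.65, 2.01 and 1.87 CPM in naive cells and 44.6, 53.5 and 35.1 CPM after 24 h (log2 fold change 4.58 ± 0.19 and adjusted p = 1.74e-09). E2f1, an activator of the list's own genes, rose with 2.27, 2.49 and 2.57 CPM in naive cells and 42.1, 53.4 and 40.6 CPM after 24 h (log2 fold change 4.21 ± 0.26 and adjusted p = 5.27e-08). Uhrf1, which maintains DNA methylation through replication, stood at 8.73, 9.22 and 9.88 CPM in naive cells and 290.5, 369 and 202 CPM after 24 h (log2 fold change 4.93 ± 0.25 and adjusted p = 1.06e-08). Cdt1 rose least among the genes named here (log2 fold change 0.54 ± 0.14 and adjusted p = 0.00702), and its call was lost without mouse 5 (adjusted p 0.00255 to 0.0541).

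Mitosis genes rose in 28 of 30 cases, each by at least 2-fold, and none fell. Their median was 3.61, the highest of the 36 gene lists, and here the mice differed most, with 3.27, 4.61 and 2.81. Mki67, the proliferation antigen Ki-67, stood at 13.5, 12.3 and 15.5 CPM in naive cells and 269, 500.0 and 154 CPM after 24 h (log2 fold change 4.34 ± 0.36 and adjusted p = 5.32e-07). Top2a, which untangles chromosomes, stood at 17.3, 16.3 and 20.6 CPM in naive cells and 368, 642 and 246 CPM after 24 h (log2 fold change 4.45 ± 0.31 and adjusted p = 1.25e-07) and Cdk1, the mitotic kinase, at 1.66, 1.36 and 1.61 CPM in naive cells and 43.2, 67.2 and 38.3 CPM after 24 h (log2 fold change 4.98 ± 0.39 and adjusted p = 3.11e-07). Mouse 3 was highest and mouse 5 lowest at 24 h for each of these 3 genes, and the naive libraries were alike. Ccnb1, the cyclin of mitotic entry, was still rare with 0.489, 0.332 and 0.563 CPM in naive cells and 4.32, 8.22 and 3.42 CPM after 24 h (log2 fold change 3.46 ± 0.45 and adjusted p = 2.93e-05). Plk1 and Aurka, which act late, rose by 2.26 and 1.67, and Aurkb and Bub1 by 5.03 and 5.07. Cenpa and Kif23 did not pass (adjusted p 0.38 and 0.569).

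Cyclins and CDK inhibitors rose in 10 of 23 cases and fell in 3, against 23.9% and 17.5% of all genes tested. Ccne1 stood at 21.2, 21.7 and 19.6 CPM in naive cells and 55.7, 66 and 43.1 CPM after 24 h (log2 fold change 1.38 ± 0.22 and adjusted p = 0.000159), Ccna2 at 11.6, 12.4 and 13.5 CPM in naive cells and 80.4, 130.2 and 70.6 CPM after 24 h (log2 fold change 2.88 ± 0.28 and adjusted p = 2.23e-06) and Cdk4 at 130.0, 132 and 126 CPM in naive cells and 312, 333 and 333 CPM after 24 h (log2 fold change 1.33 ± 0.18 and adjusted p = 5.02e-05). Ccnd2 and Ccnd3, the D cyclins of T cells, had overlapping groups, with 541, 595 and 627 CPM in naive cells and 664, 630.3 and 512 CPM after 24 h and with 162, 179.9 and 176 CPM in naive cells and 149, 153 and 166 CPM after 24 h (adjusted p 0.897 and 0.321). The inhibitor gene Cdkn1b, or p27, stood at 182, 179 and 156 CPM in naive cells and 121, 103 and 125 CPM after 24 h, a difference that did not pass (adjusted p = 0.164) and that 1 alternative calls lower (range 0.00144 to 0.459). Cdkn2c rose by 1.36.

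The promoters of these lists were compared with those of all genes, because members that move together may share sequence. RefSeq promoters of GRCm38.p6, from 250 bases before to 50 bases after the start, were matched by symbol for 12062 of the 21014 tested symbols and for 665 of 840 list members. In 36 lists, of which 35 had a matched promoter, 10 motifs were searched on both strands. They included the E2F motif (TTTCGCG or TTTGGCG), the E-box (CACGTG), the NRF1 motif (GCATGCG), the AP-1 motif (TGACTCA or TGAGTCA) and the cyclic AMP element (TGACGTC). The others were the CCAAT box (CCAAT), the ATF4 element (TGATGCA), the ETS motif (CCGGAAG), a sterol element (CACCCCA) and the TATA box (TATAAA). The shares given next are those furthest above the share over all genes. The CCAAT box was found in 38.4% of all matched promoters. It was found in 23 of 27 mitosis promoters (85.2%), in 16 of 19 cholesterol synthesis promoters (84.2%) and in 19 of 25 promoters of the unfolded protein response list (76.0%). Its share varied widely among the lists, with 72.2% for fatty acid synthesis, 71.4% for fate factors and 62.9% for replication, but 11.8% for checkpoint receptors and 0 of 11 for homing receptors. The E2F motif was found in 3.86% of all promoters and in 14 of 35 replication promoters (40.0%). Within the 150 bases before the start alone, with no base after it, these 2 shares were 1.96% and 22.9%. Both motifs are short, and a match does not show that a factor binds. Printed here are 5 promoters as examples of these matches, 5′ to 3′ on the gene's strand, with the motif in capitals. Those of Ncapg, Cyp51 and Dnajb9 hold a CCAAT box, and those of Chek1 and Chaf1a, chosen after the shares were seen, hold the E2F motif.
Ncapg: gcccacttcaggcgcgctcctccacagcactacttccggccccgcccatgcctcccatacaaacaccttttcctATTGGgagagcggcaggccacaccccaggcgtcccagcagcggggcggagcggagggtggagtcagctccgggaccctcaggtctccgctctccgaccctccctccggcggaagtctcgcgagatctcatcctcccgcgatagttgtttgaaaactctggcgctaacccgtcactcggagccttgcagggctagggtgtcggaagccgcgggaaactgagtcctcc
Cyp51: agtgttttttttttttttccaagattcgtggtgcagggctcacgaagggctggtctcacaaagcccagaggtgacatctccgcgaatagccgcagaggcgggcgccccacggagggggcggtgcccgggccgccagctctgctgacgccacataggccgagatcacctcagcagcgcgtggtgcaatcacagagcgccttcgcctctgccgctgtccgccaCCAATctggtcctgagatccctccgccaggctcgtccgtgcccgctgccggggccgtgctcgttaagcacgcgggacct
Dnajb9: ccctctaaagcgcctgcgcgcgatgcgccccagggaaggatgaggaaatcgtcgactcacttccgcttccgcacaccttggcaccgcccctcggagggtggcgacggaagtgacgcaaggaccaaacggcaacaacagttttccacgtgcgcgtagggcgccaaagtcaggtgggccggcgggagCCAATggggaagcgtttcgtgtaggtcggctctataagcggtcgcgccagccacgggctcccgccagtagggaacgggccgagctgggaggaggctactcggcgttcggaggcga
Chek1: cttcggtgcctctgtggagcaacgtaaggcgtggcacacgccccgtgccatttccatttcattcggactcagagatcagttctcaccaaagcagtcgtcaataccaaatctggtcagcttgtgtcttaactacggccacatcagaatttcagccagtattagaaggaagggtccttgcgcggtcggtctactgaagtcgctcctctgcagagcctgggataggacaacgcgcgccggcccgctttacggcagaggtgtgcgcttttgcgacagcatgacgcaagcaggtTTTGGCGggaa
Chaf1a: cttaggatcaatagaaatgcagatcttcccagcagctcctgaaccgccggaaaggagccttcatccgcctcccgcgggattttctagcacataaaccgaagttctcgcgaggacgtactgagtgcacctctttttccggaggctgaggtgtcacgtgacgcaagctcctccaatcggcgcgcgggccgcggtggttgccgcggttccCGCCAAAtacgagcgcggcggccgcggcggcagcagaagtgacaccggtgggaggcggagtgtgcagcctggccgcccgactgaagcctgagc

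The Ncapg promoter lies at chr5:45669675-45669974, plus strand, and its single CCAAT box, in reverse orientation, begins 176 bases before the start. Ncapg, a subunit of condensin, which compacts chromosomes, stood at 2.03, 2.01 and 1.84 CPM in naive cells and 45, 70.6 and 33.5 CPM after 24 h (log2 fold change 4.61 ± 0.27 and adjusted p = 3.37e-08). That of Cyp51 lies at chr5:4104648-4104947, minus strand, with the box 29 bases before the start, and that of Dnajb9 at chr12:44210019-44210318, minus strand, with the box 65 bases before the start. The E2F match of Chek1 (chr9:36726609-36726908, minus strand) begins 39 bases past the start, and that of Chaf1a (chr17:56040166-56040465, plus strand) 43 bases before it. Chaf1a, a histone chaperone of replication, stood at 3.77, 4.23 and 4.41 CPM in naive cells and 91.4, 107 and 79.3 CPM after 24 h (log2 fold change 4.48 ± 0.21 and adjusted p = 4.33e-09). Of these 5 genes Dnajb9 fell and the other 4 rose, so the CCAAT box was seen in promoters of genes of either direction.

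Genes of protein folding in the cytosol and of the proteasome rose in 24 of 28 cases and fell in 1 (median 1.02). Hsp90ab1, a chaperone of signalling kinases, stood at 1805, 1939 and 1779.9 CPM in naive cells and 5390.3, 5112 and 4993 CPM after 24 h (log2 fold change 1.49 ± 0.11 and adjusted p = 1.84e-07), and Psma1, of the proteasome core, at 67, 67.6 and 79 CPM in naive cells and 172, 189.8 and 192 CPM after 24 h. The single fall was of the heat-inducible Hspa1a (-3.49), at no more than 1.17 CPM in any library. Genes of the unfolded protein response moved in both directions. Of its 28 genes 14 rose and 5 fell, against 23.9% and 17.5% of all genes tested. The share of falls was thus near that over all genes. Asns, asparagine synthetase and a target of Atf4, stood at 0.415, 0.463 and 0.522 CPM in naive cells and 11.2, 22.2 and 11.7 CPM after 24 h (log2 fold change 4.98 ± 0.49 and adjusted p = 2.50e-06), and Sdf2l1 rose by 2.44. Dnajb9, a chaperone of the endoplasmic reticulum, fell with 117, 121 and 71.3 CPM in naive cells and 11.6, 11.1 and 11.5 CPM after 24 h (log2 fold change -3.16 ± 0.24 and adjusted p = 2.96e-07), and Ppp1r15a, which reverses the stress block on translation, fell with 643, 613 and 367 CPM in naive cells and 25.1, 25 and 37.8 CPM after 24 h (log2 fold change -4.22 ± 0.28 and adjusted p = 7.83e-08). Atf4 itself was lower, with 316, 320.1 and 256 CPM in naive cells and 182, 190.0 and 216 CPM after 24 h (log2 fold change -0.61 ± 0.18 and adjusted p = 0.0158), a call lost without mouse 1 or mouse 3 (adjusted p 0.00129 to 0.138). Hspa5 and Xbp1 overlapped between the groups (adjusted p 0.366 and 0.426).

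In the BCL2 family, which sets the threshold of cell death, 9 of 18 genes rose and 2 fell. Over all genes tested 23.9% rose and 17.5% fell. Bcl2 stood at 211, 208 and 213 CPM in naive cells and 109, 115 and 71.8 CPM after 24 h (log2 fold change -1.11 ± 0.25 and adjusted p = 0.0026), and its relative Bcl2l1, or Bcl-xL, at 11.6, 15.5 and 15.2 CPM in naive cells and 43.9, 56.9 and 60.1 CPM after 24 h (log2 fold change 1.93 ± 0.29 and adjusted p = 0.000118), so that the 2 survival genes moved in opposite directions in each mouse. Mcl1 did not pass, with 539, 584 and 589 CPM in naive cells and 549.8, 583 and 623 CPM after 24 h (adjusted p = 0.874). Bcl2a1b and Bcl2a1d rose by 2.76 and 2.95, but these are near-identical copies and reads may be split between them. The killer gene Bcl2l11, or Bim, was higher with 70.3, 84.6 and 78.4 CPM in naive cells and 157, 126 and 151 CPM after 24 h (log2 fold change 0.90 ± 0.23 and adjusted p = 0.00563), a call lost without mouse 1 (adjusted p 0.000912 to 0.076).

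Interferon-stimulated genes were the list that fell most. Of 30 type I interferon-stimulated genes 28 fell and 1 rose, with 24 falls past 2-fold, against 17.5% lower and 9.67% lower past 2-fold over all genes. The median was -2.27, with -2.42, -2.19 and -2.25 in the 3 mice. Isg15, a ubiquitin-like antiviral protein, stood at 62, 63 and 72.9 CPM in naive cells and 3.85, 6.53 and 6.12 CPM after 24 h (log2 fold change -3.60 ± 0.39 and adjusted p = 6.55e-06). Oas2, which senses viral RNA, stood at 294, 272 and 249.9 CPM in naive cells and 12.9, 13.6 and 17.6 CPM after 24 h (log2 fold change -4.21 ± 0.37 and adjusted p = 8.38e-07), and Irf7, which amplifies interferon production, at 309, 347 and 329.6 CPM in naive cells and 27, 34.6 and 43 CPM after 24 h (log2 fold change -3.26 ± 0.43 and adjusted p = 3.44e-05). Mx1 fell by 3.84 and Ifit1 fell by 2.66. Interferon-inducible GTPases, which respond mainly to interferon gamma, rose in 9 of 15 cases and fell in none. Gbp2 stood at 155, 158 and 173 CPM in naive cells and 979, 1447 and 807 CPM after 24 h (log2 fold change 2.73 ± 0.38 and adjusted p = 5.69e-05) and Gbp5 at 52.4, 53.2 and 63.6 CPM in naive cells and 248, 359.7 and 213 CPM after 24 h (log2 fold change 2.26 ± 0.21 and adjusted p = 1.33e-06), both highest in mouse 3. Related family members of these genes resemble each other, so reads may be split among them.

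**Figure D4:**
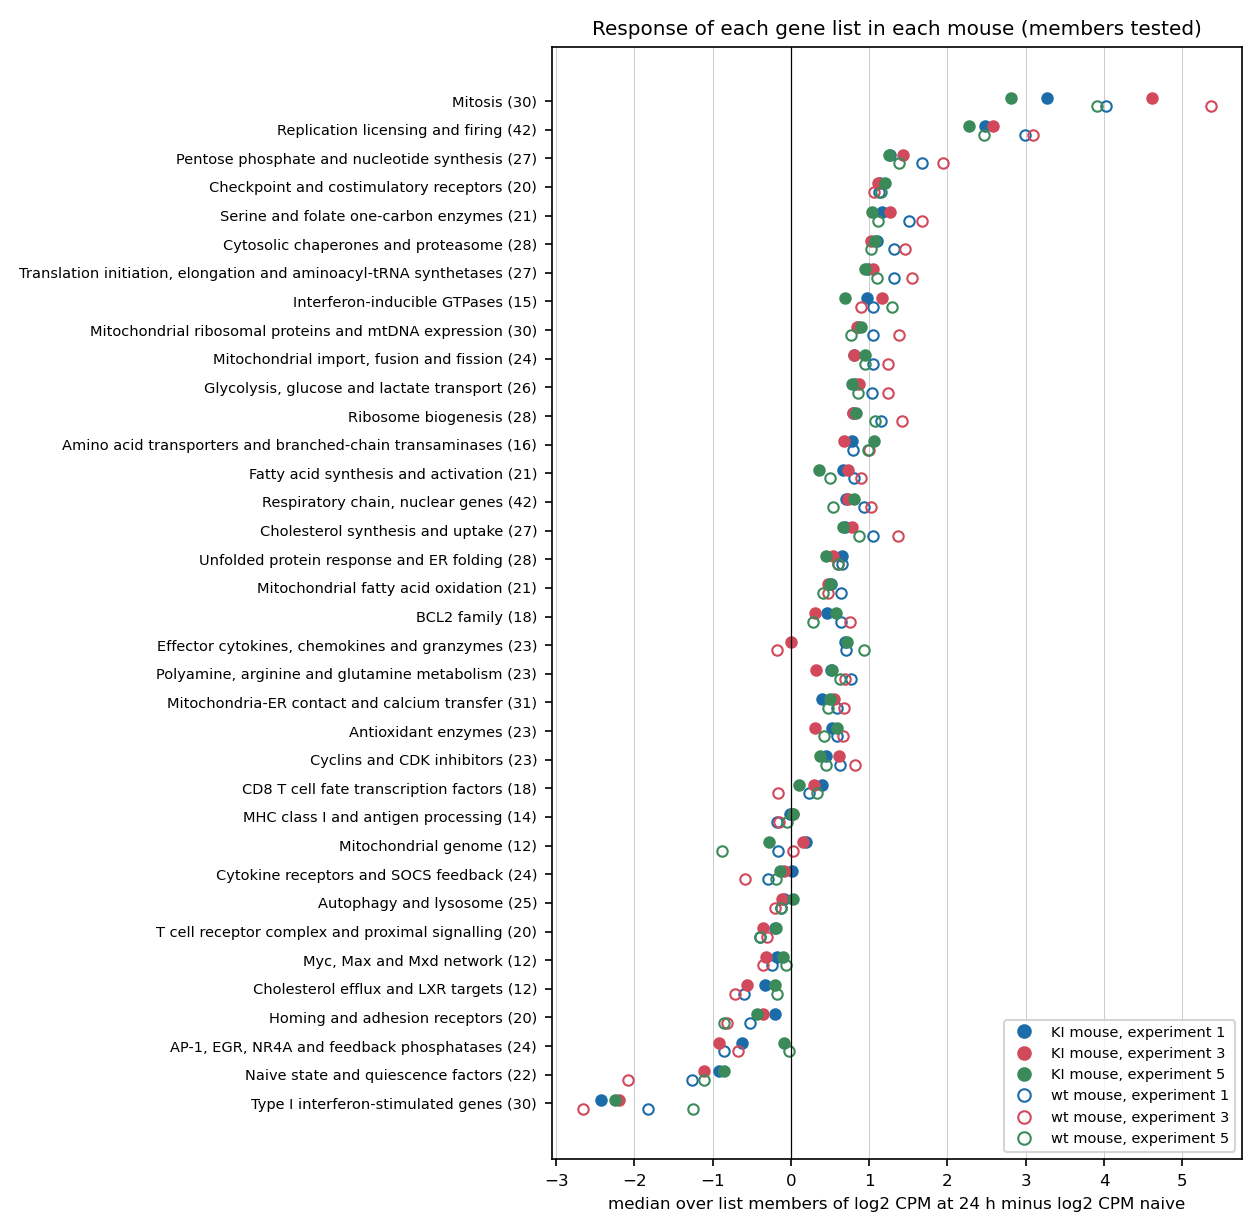
Median over each gene list of the log2 CPM at 24 h minus the log2 CPM naive, for each KI mouse (filled) and each wt mouse (open), ordered by the fitted KI median, with the number of members tested. Mitosis lies furthest right, at 2.81 to 4.61 in KI mice, and type I interferon-stimulated genes furthest left, at -2.42 to -2.19.

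The spread of the response among the mice was computed for the called genes, which pass partly because the mice agree. Over the called genes the median SD of the log2 change among the 3 mice was 0.22, and it was not computed for the 12402 genes not called. Among called genes above 10 CPM the largest spread was that of Lyz2, the lysozyme of macrophages and neutrophils, at 42.1, 58.1 and 99.3 CPM in naive cells and 0.888, 1.92 and 23 CPM after 24 h. Mouse 5 kept more Lyz2 at 24 h than the other 2 mice. Its summed macrophage markers were higher too (61.5 CPM against 28.0 and 29.6 CPM), but Lyz2 is itself 1 of the markers in that sum. Vcam1, Slc40a1, Maff, Igha and Kif2c were the next most variable. Igha, an immunoglobulin constant gene of plasma cells, stood at 67.2, 13.8 and 69.4 CPM in naive cells and 4.0, 4.97 and 18.6 CPM after 24 h, and its groups overlapped, with a call lost without the mouse block, without mouse 1 and without mouse 5 (adjusted p 0.00285 to 0.143). Kif2c, a mitotic kinesin, stood at 0.474, 0.434 and 1.13 CPM in naive cells and 17.2, 31.5 and 13.5 CPM after 24 h (log2 fold change 4.89 ± 0.40 and adjusted p = 5.37e-07), with the highest 24 h level in mouse 3.

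Read per transcript length, in FPKM as deposited, the abundant transcripts of the KI cells included the following. Eef1a1, an elongation factor, stood at 3851 FPKM naive and 3831 FPKM at 24 h as means of 3 libraries, B2m, the light chain of MHC class I, at 2952 FPKM naive and 2501 FPKM at 24 h, and mt-Co1 at 7384 FPKM naive and 5904 FPKM at 24 h. Neither B2m nor Eef1a1 passed (adjusted p 0.415 and 0.644). Tcaim reached 53.4 FPKM naive and 74.6 FPKM at 24 h.

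Set against wt cells, the KI response covered largely the same genes. In wt cells 10798 genes were called, 5788 higher (27.3%) and 5010 lower (23.7%). Of these, 7897 were called in KI cells too, which is 89.9% of the KI calls and 73.1% of the wt calls, and 1 of them differed in direction. Of the 7897 genes 6003 had a log2 fold change closer to 0 in KI than in wt cells. The difference of the 2 responses, tested for each gene in the same fit, was called for no gene by edgeR, with 924 genes at an unadjusted p under 0.05 (4.36% of those tested) and a smallest adjusted p of 0.308. The count of 924 depends on single mice, with 505 without KI mouse 1, 480 without KI mouse 5, 604 without wt mouse 1, 471 without wt mouse 3 and 1685 without wt mouse 5. The 12 libraries fitted alone gave 1939 of 19760 genes. DESeq2 called 14 genes, and the edgeR fit of the 12 KI and wt libraries alone called 2, Zfp365 and Bst2, which are also among the 14. For Tcaim the difference was 1.24 ± 0.28, unadjusted p = 0.000568, adjusted p = 0.86, with KI higher in 3 of 3 mice and wt lower in 3 of 3 mice, and Tcaim is among the 14 genes of DESeq2 (adjusted p = 0.0487, against up to 1 over all fits). In Zfp365, whose difference had the smallest p, the log2 fold change was -2.91 in KI and -1.44 in wt cells (difference -1.46 ± 0.23, unadjusted p = 1.45e-05, adjusted p = 0.308).

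**Figure D5:**
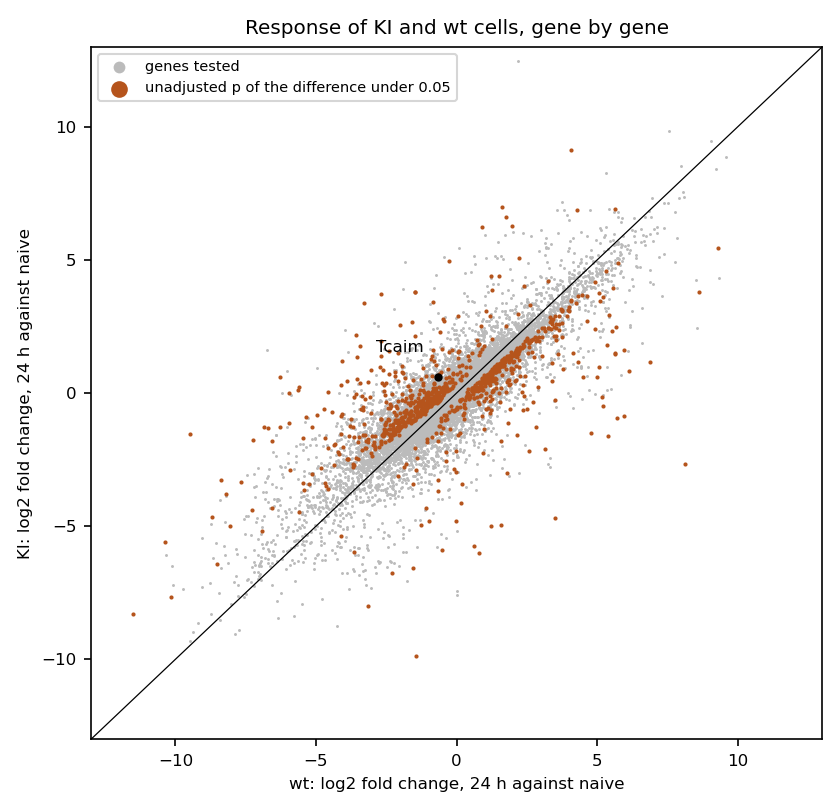
Log2 fold change at 24 h against naive in KI cells against that in wt cells, for each tested gene, with the line of equal response. Brown points have an unadjusted p of the difference under 0.05 (924 genes, none called after adjustment), and Tcaim lies at 0.60 in KI and -0.65 in wt cells.

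By list, the KI medians of the growth and division programs lay below those of wt cells. For ribosome biogenesis the median was 0.79 in KI and 1.23 in wt cells, with 0.79, 0.79 and 0.83 in KI mice and 1.15, 1.42 and 1.07 in wt mice, which do not overlap. All 28 members had a smaller fold change in KI cells, as had 42 of 42 replication genes, 30 of 30 mitosis genes, 26 of 27 nucleotide genes and 25 of 27 cholesterol genes, against 10182 of all 21183 genes tested. That baseline pools rising and falling genes, whereas most members of these lists rose. Of the 7897 genes called in both genotypes, 6003 had a change of smaller size in KI cells. The share among rising genes alone was not computed, so the lists cannot be set apart from other rising genes. Cholesterol synthesis had a median of 0.70 in KI and 1.05 in wt cells, with 1.05, 1.37 and 0.87 in the wt mice, all above the 3 KI mice. For Sc5d the log2 fold change was 0.65 in KI and 1.22 in wt cells (difference -0.57 ± 0.17, unadjusted p = 0.00517, adjusted p = 0.986). For replication the medians were 2.48 and 2.80, with 2.48, 2.58 and 2.28 in KI mice and 2.99, 3.10 and 2.47 in wt mice. For mitosis they were 3.61 and 4.54, with 3.27, 4.61 and 2.81 in KI mice and 4.03, 5.36 and 3.91 in wt mice. In both lists the ranges over mice overlapped, and the KI mouse lay below the wt mouse of the same experiment number in 3 of 3 experiments, a comparison with no test. Members of a list are not independent of each other, and the single-gene differences did not pass the adjustment.

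For genes of the naive state the fitted falls in KI cells were closer to 0, although no gene passed the adjusted test of the difference. The list's median was -0.94 in KI and -1.36 in wt cells. By mouse the medians were -0.91, -1.12 and -0.85 in KI and -1.27, -2.08 and -1.12 in wt cells, so the ranges met. The lower value was in KI for 3 of 22 members, against 10182 of all 21183 genes tested, which pool rising and falling genes. Klf2 had log2 fold changes of -1.83 and -2.95 (difference 1.12 ± 0.42, unadjusted p = 0.0175, adjusted p = 0.986), Il7r of -1.59 and -3.27 (difference 1.68 ± 0.60, unadjusted p = 0.0134, adjusted p = 0.986), and Txnip of -1.26 and -2.28 (difference 1.01 ± 0.26, unadjusted p = 0.00166, adjusted p = 0.986). Id2, among the fate factors, had -1.09 and -2.06 (difference 0.97 ± 0.23, unadjusted p = 0.000808, adjusted p = 0.986). Type I interferon-stimulated genes showed the reverse order, with medians of -2.27 and -1.89, and Oas3 had the smallest p among them, -2.42 against -1.40 (difference -1.02 ± 0.19, unadjusted p = 0.000103, adjusted p = 0.729). DESeq2 called the difference for Oas3 (adjusted p = 0.00344) and for Bst2 and Phf11a of the same list (0.0487 each), and the 12 libraries fitted alone called Bst2 (0.0324), while over all fits the adjusted p of each of the 3 genes reached up to 1. The medians of the mice overlapped between the genotypes in this list. Checkpoint receptors had medians of 1.15 in KI and 1.11 in wt cells, and the respiratory chain of 0.71 and 0.84. Lag3 had 5.58 in KI and 5.61 in wt cells (difference -0.03 ± 0.27, unadjusted p = 0.899, adjusted p = 1.0).

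Some of the genes named have exons that overlap exons of another gene, and the strand setting of the counting is not given in the sources used here. Reads of both genes cannot be told apart for Aars, Ace, Bach2, Bcat1, Bcl2, Bcl2a1b, Ccna2, Ccnd2, Ccnd3, Cd247, Cd3e, Cdc45, Cdk4, Chaf1a, Cish, Cox5a, Cyp51, Dnajb9, Dnm1l, Dusp1, Eef1a1, Eif4a1, Eif4g1, Eomes, Etfb, Fdps, Fn1, Fosl1, Foxo1, Gabarapl1, Gapdh, Gbp2, Hmgcs1, Hspa1a, Hspd1, Idi1, Ifng, Il12rb2, Il2rg, Il6ra, Irf7, Itpr1, Itpr3, Jun, Junb, Map1lc3b, Ncapg, Ncl, Ndufa2, Ndufs3, Nrn1, Pkm, Plk1, Ppp1r15a, Prdx2, Psme1, Rmdn3, Shmt2, Slc2a1, Slc6a9, Slfn5os, Srebf1, Stat5a, Top2a, Tpi1, Txnip, Umps, Vcam1, Xcl1, mt-Co1 and mt-Nd1.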

How the data were processed

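Poly(A) RNA of mouse CD8 T cells was sequenced with a stranded kit, per the labels' protocols. The authors deposited raw counts per gene and FPKM values per library. The submitters' processing notes name TopHat2 2.1.0, Bowtie2 2.2.5, SAMtools 0.1.19, featureCounts, DESeq2 1.6.3 and GRCm38; the strand setting of the counting is not given in the sources used here. FPKM as deposited by the authors served only for levels between genes.

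Here the counts of all 22 libraries were fitted with edgeR 4.0.16 (R 4.3.3). Genes passed filterByExpr (minimum count 10, total 15), scaling was TMM, and the design held 8 mice as blocks and 5 terms for time within genotype, which left 9 residual degrees of freedom. The quasi-likelihood F test was adjusted by Benjamini-Hochberg over the 21183 genes tested. Each KI and wt group rests on 3 animals, and all groups share the estimate of the spread. The naive and 24 h libraries with the same experiment number come from the same mouse, and their deviations from the group means correlated at 0.163, 0.112 and 0.249 across genes, against -0.188 to 0.0432 for unlike numbers. Deviations from a mean of 3 libraries cancel within a group, so higher values for like numbers go with lower ones for unlike numbers. These correlations cannot tell the mouse from the experiment. The fit was tested on simulated counts, and no 2 KI libraries of the same group agreed within counting noise. No column of other samples was present.

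Genes are named by rule: Tcaim; the 12 largest called rises and falls with a mean of at least 10 CPM in the higher group; preset key members and up to 4 called members per direction and list; the 6 called genes that varied most among mice; and the 6 with the highest FPKM. The members and lists were chosen with earlier results of these data known, and no set was tested. Alternatives changed the block, the libraries fitted, the tool (DESeq2 1.42.0), the scaling and the filter, or left out 1 mouse. A few genes of the lists are counted but not reported here by name.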

Additional observations from a re-analysis of the deposited data

How the results depend on the processing

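With the mouse as a block 8781 genes were called in KI cells, and 8206 were called without the replicate block, so the paired analysis changed the count by less than 1.5 times. Leaving out 1 KI mouse gave 5524 to 6701 calls, the lowest without mouse 1 and then 5547 without mouse 3, in fits with fewer libraries. The 6 libraries fitted alone gave 10429, DESeq2 9575, DESeq2 size factors in edgeR 8910, upper-quartile scaling 9138, library size alone 8672 and no filter on low counts 8253. Calls of at least 2-fold numbered 3433 to 4796 over these alternatives. Of 411 named genes 310 kept their direction and their call under each alternative, and none reversed. The difference between the KI and wt responses had 0 calls, 2 with the 12 libraries fitted alone and 14 with DESeq2; the cause was not tested. It stayed at 0 calls in the other fits, including those without 1 KI or 1 wt mouse. The median of the MHC class I list is near 0 and changes sign in 6 of the 10 alternatives, with -0.17 under upper-quartile scaling. What depth limits was not tested, and the 3 mice per group limit the precision. The CCAAT shares with 150 instead of 250 bases before the start were 81.5% (mitosis), 78.9% (cholesterol) and 76.0% (unfolded protein response), while the E2F share of replication promoters fell from 40.0% to 22.9%.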

Other observations

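Fatty acid oxidation in mitochondria rose in part, with 12 of 21 genes higher and 2 lower against 23.9% and 17.5% of all genes tested. Cpt1a, which admits long-chain fatty acids to mitochondria, stood at 79.6, 85 and 134 CPM in naive cells and 54.8, 47.7 and 50.5 CPM after 24 h (log2 fold change -0.95 ± 0.21 and adjusted p = 0.00195, edgeR with Benjamini-Hochberg adjustment). The matrix enzyme gene Acadl rose by 1.07, Decr1 by 1.12 and the electron carrier Etfb by 1.17. Acaa2, a thiolase of the matrix, did not pass (-0.25, adjusted p = 0.0912), though 5 alternatives call it lower, and 7 of the 21 genes did not pass in all.

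Among 23 antioxidant genes 11 rose and 3 fell, where 23.9% of all genes tested rose and 17.5% fell. Txn1, thioredoxin, stood at 37.5, 40.1 and 39.6 CPM in naive cells and 199, 192 and 206 CPM after 24 h (log2 fold change 2.35 ± 0.16 and adjusted p = 1.07e-07), and the peroxiredoxin genes Prdx1, Prdx2 and Prdx4 rose by 1.39, 1.19 and 1.67. Hmox1, heme oxygenase, which macrophages express strongly, fell with 11.5, 9.97 and 20.8 CPM in naive cells and 1.35, 2.14 and 4.34 CPM after 24 h (log2 fold change -2.51 ± 0.26 and adjusted p = 4.04e-06), and macrophage markers were lower at 24 h as well. The part of macrophages in that fall was not tested. Of 23 genes of polyamine, arginine and glutamine metabolism 11 rose and 1 fell. Srm, spermidine synthase, stood at 37.5, 41.4 and 40.9 CPM in naive cells and 141, 153 and 177 CPM after 24 h (log2 fold change 1.96 ± 0.32 and adjusted p = 0.000198), and Pycr1, of proline synthesis, rose by 2.69.

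Of 25 autophagy and lysosome genes 3 rose and 6 fell, where 23.9% of all genes rose and 17.5% fell. Gabarapl1 stood at 5.35, 5.8 and 4.56 CPM in naive cells and 23, 20.7 and 22.9 CPM after 24 h (log2 fold change 2.08 ± 0.21 and adjusted p = 2.92e-06) and its relative Map1lc3b at 159, 170.1 and 108 CPM in naive cells and 69, 64.2 and 82 CPM after 24 h (log2 fold change -1.01 ± 0.19 and adjusted p = 0.000751), opposite in direction. In MHC class I and antigen processing 3 of 14 genes rose and 4 fell, so the rises were near the 23.9% of all genes. H2-K1, a classical class I heavy chain, stood at 3439, 3659 and 3321 CPM in naive cells and 2083, 2123 and 2734 CPM after 24 h (log2 fold change -0.60 ± 0.13 and adjusted p = 0.00154), while the proteasome activator genes Psme1 and Psme2 rose by 0.50 and 0.72. Class I genes resemble each other, so reads may be split among them.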
